A study of Mus musculus with 14 samples.

Results

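Total RNA was compared between Mettl3-KO and wild-type (WT) mouse embryonic stem cells in the 12 of 14 libraries that hold at least 1000000 counts, 7 from the knockout line and 5 from WT. Membership rests on depth alone, and the WT 1 h replicate 2 library (49159 counts) and the Mettl3-KO 3 h replicate 2 library (602485 counts) were left out. Mettl3 encodes the catalytic subunit of the nuclear enzyme that methylates adenosine at the N6 position (m6A) in messenger RNA, a mark known to shorten the life of many transcripts. Mouse embryonic stem cells grown with LIF, a cytokine that holds them undifferentiated, enter a reversible dormancy-like state called pausing when the kinase mTOR is inhibited. In embryonic stem cells, loss of Mettl3 is known to disturb the exit from naive pluripotency.

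All cells were E14 cells according to the cell line field, although the source names of the 2 knockout libraries at 8 h read E15 and E16. All had been kept paused for 2 weeks with 200 nM INK128, an mTOR inhibitor, in medium with FBS and LIF on gelatin. All were then labelled for 12 h with 100 µM 4-thiouridine (S4U), a uridine analogue that marks newly made RNA, and chased for 0, 1, 3 or 8 h. The RNA was treated with 10 mM iodoacetamide, which alkylates S4U, and 100 ng of it went into 3′-end library preparation. WT gave 1 deep library each at 0, 1 and 3 h and 2 at 8 h. The knockout gave 2 each at 0, 1 and 8 h and 1 at 3 h. The labels do not say whether the knockout line is 1 clone or whether replicates were separate cultures, so each p-value measures only the spread between these libraries, which may be technical.

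The 12 libraries held 6108570 to 26656352 counts over 36336 annotated entries, and 14919 entries had at least 10 counts in at least 5 libraries and were tested. The first principal component took 49.9% of the variance and separated the lines, and on the second (11.7%) the WT 8 h replicate 2 library lay at 90.96 while the others lay between -39.85 and 33.81. Levels are CPM, counts scaled to 1000000 per library, after TMM scaling, and WT values are given in the order 0 h, 1 h, 3 h, 8 h replicate 1 and 8 h replicate 2. Fold changes are log2 values, knockout relative to WT with chase time as a factor, and a gene is called when its adjusted p from edgeR's quasi-likelihood test with Benjamini-Hochberg adjustment is below 0.05. In bulk RNA, fewer cells of a type and less RNA per cell cannot be told apart.

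Mettl3 itself (chromosome 14, 52294841 to 52308741) was at 43.6, 80.5, 56.2, 32.5 and 24 CPM in WT. In the knockout it lay between 1.26 and 2.44 CPM, median 1.73. The lines did not overlap, with Mettl3 lower by a log2 change of -4.79 (SE 0.21, edgeR adjusted p = 4.92e-11). The lines also differed in Y-linked genes, so every difference given here is between 2 lines and not assigned to Mettl3. Ddx3y, an RNA helicase encoded on the Y chromosome, was at 1.11, 4.11, 3.36, 1.34 and 1.11 CPM in WT and between 138 and 219 CPM in the knockout. All 4 Y-linked genes tested of 8 listed were higher in the knockout, with a median log2 change of 6.72.

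Markers of embryonic stem cells were abundant in both lines, with a summed level of 5381 to 6700 CPM in WT and 4529 to 6370 in the knockout, and 3 of 10 were called lower. Primitive endoderm markers summed to 154 to 204 CPM in WT and 37.1 to 50 in the knockout, with 7 of 10 lower, 1 higher and none at 0. Neural markers summed to 81.8 to 108 CPM in WT and 480 to 780 in the knockout, with 4 higher and 2 lower of 6 tested, and in the knockout most of that sum was Stmn2. Trophoblast markers summed to 66.5 to 84.9 CPM against 118 to 139, with 1 higher and 3 lower of 7 and Elf5 at 0. Fibroblast markers summed to 18 to 32.4 CPM in WT and 8.75 to 12.7 in the knockout, with 2 of 4 lower and Postn at 0.

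Of the 14919 genes, 3147 (21.1%) were higher in the knockout and 2967 (19.9%) lower, 41.0% in all. The median change was 0.01. A change of at least 1 on the log2 scale was reached by 1765 of the higher and 1699 of the lower genes. For 1809 genes (12.1%) every knockout library lay above every WT library, and for 1623 (10.9%) every one lay below. Without the WT 8 h replicate 2 library the counts were 3111 and 2687. With all 14 libraries they were 1788 and 1455. Of the called genes named here, 19 were not called with all 14 libraries: Atg14, Atg7, Atp6v1a, Cnn2, Deptor, Des, Efna4, Efnb1, Efnb3, Itgb4, Notch1, Pibf1, Pou3f1, Pou4f1, Rsad2, Rubcn, Slc2a3, Steap2 and Zfp882.

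The genes with the smallest p-values included growth, cytoskeletal and lysosomal genes. Ccnd2, the G1 cyclin D2, was at 27.7, 39.6, 26.5, 40.6 and 36.9 CPM in WT and at 252, 291 and 394 CPM (lowest, median, highest) in the knockout, a log2 change of 3.23 (SE 0.17, edgeR adjusted p = 2.15e-10). Ccnd3, the related cyclin D3, went the other way, from 1061, 1259, 894, 1574 and 1411 CPM in WT to 104, 170 and 203 in the knockout (log2 -2.90, SE 0.18, edgeR adjusted p = 2.30e-09). The libraries of the lines did not overlap for either cyclin. Laptm5, a lysosomal membrane protein best known in blood cells, was even across WT at 542, 494, 452, 512 and 534 CPM. In the knockout it was at 26.6, 32.2 and 40.8 CPM (log2 -4.0, SE 0.15, edgeR adjusted p = 8.47e-12). Enzymes of lipid mediators were lower too, Ptges, which makes prostaglandin E2 (log2 -5.27), and Pla2g7, which breaks down platelet-activating factor (log2 -4.52). Zic5, a zinc finger factor of the neural plate, rose by 4.80 and Crmp1, a semaphorin-pathway cytoplasmic protein of neurons, by 4.5 on the log2 scale.

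**Figure D1:**
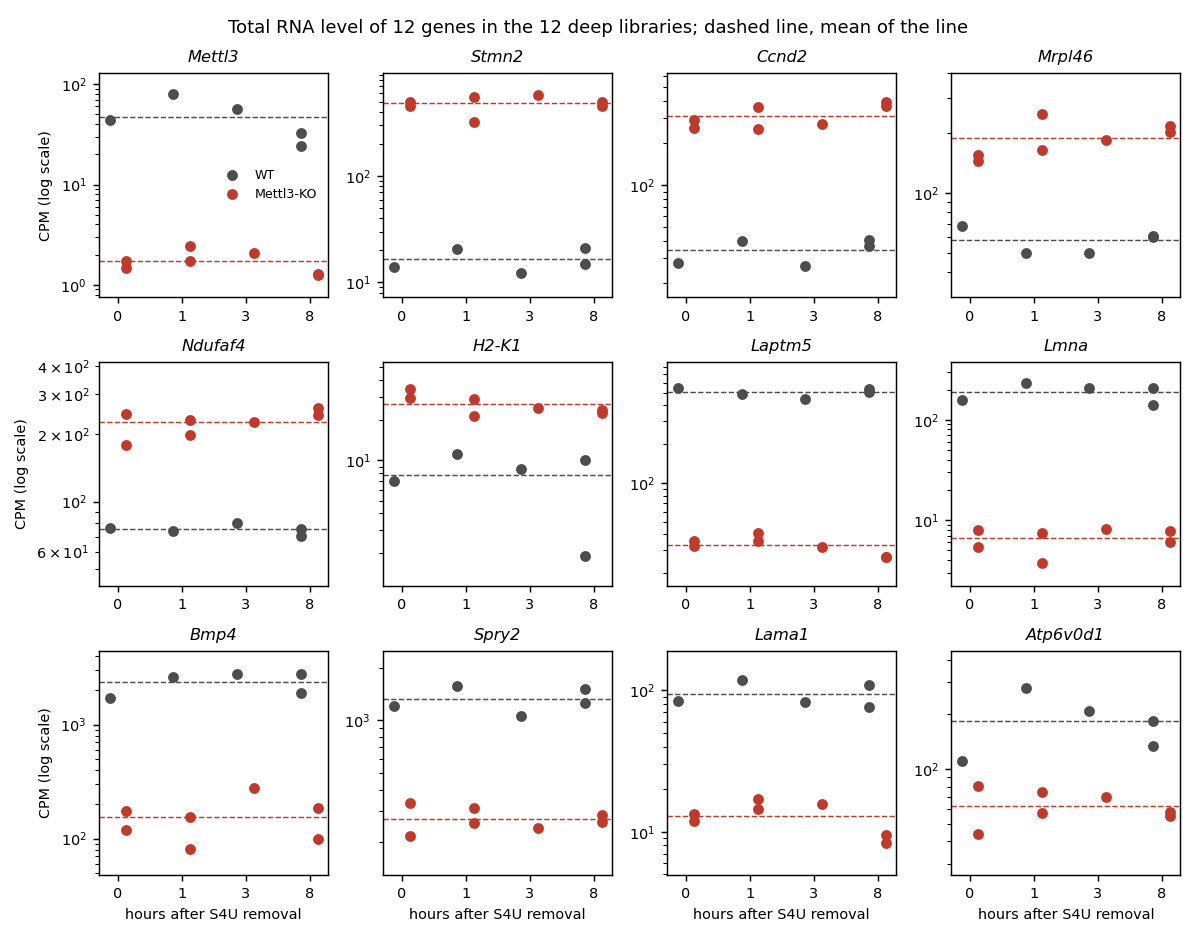
CPM (log axis) of 12 genes in each deep library against hours of chase; points are libraries, and dashed lines are the means of the 5 WT and 7 Mettl3-KO libraries. In every panel all WT libraries lie on one side of all knockout libraries.

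The changes were not spread evenly over the genome. Chromosome 8 had a median log2 change of -0.24 over 754 tested genes, with 12.1% higher and 31.4% lower, and chromosome 1 had -0.20 over 778 genes, with 15.4% higher and 28.8% lower. Chromosomes X, 11 and 3 stood on the other side, with medians of 0.20, 0.19 and 0.16. Along chromosome 8 the medians of 20 Mb bins ran from -0.35 to -0.14, and each was below 0. On chromosome 1 the first 3 bins had medians of 0.06, 0.26 and 0.20, and those after them lay between -0.46 and -0.17. The median level of chromosome 8 genes, relative to the mean of the lines, was 0.11 to 0.16 in WT libraries and -0.18 to -0.08 in knockout libraries. For chromosome 1 it was 0.08 to 0.12 against -0.12 to -0.04. The ranges of the lines also did not overlap for chromosomes 2, 3, 6, 11, 12, 17 and X. Whether copy number differed between the lines was not tested. For the gene groups below, the count without chromosomes 1 and 8 is given where leaving them out moves a count of more than 2 by over 1.5 times.

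**Figure D2:**
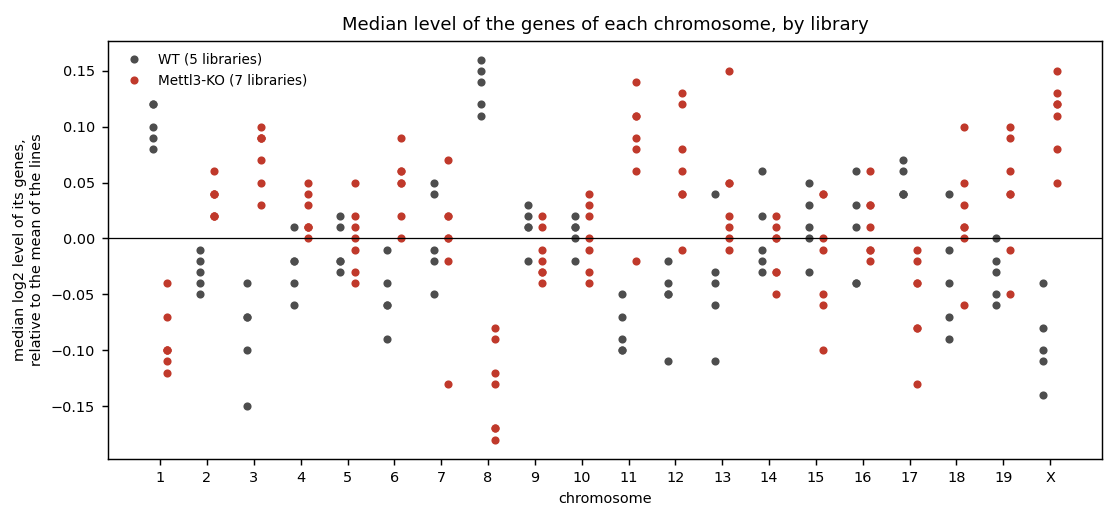
Median log2 level of the genes on each chromosome in each library, relative to the mean of the 2 lines, for 13851 genes with a mean of at least 1 CPM; points are libraries. All 5 WT libraries lie above all 7 knockout libraries on chromosomes 1, 8 and 17 and below them on 2, 3, 6, 11, 12 and X.

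Runs of neighbouring genes moved together, and these runs were picked after their values were seen. The longest lay on chromosome 3 from 95160420 to 95497240, where 14 tested genes in a row, from Sema6c to Arnt, were all higher in the knockout. Their log2 changes ran from 1.27 to 5.47 with a median of 2.45, and the libraries of the lines did not overlap for any of the 14. The run holds Setdb1, a histone H3 lysine 9 methyltransferase, at 49.5, 47.7, 51, 49.9 and 21.8 CPM in WT and at 110, 268 and 347 CPM in the knockout (log2 2.58, SE 0.28, edgeR adjusted p = 6.18e-06). It also holds Arnt, the partner of hypoxia-inducible factors (log2 2.14), Cers2, a ceramide synthase (log2 2.96), and Mindy1, a deubiquitinase (log2 1.27). The median level of the 14 genes was between -1.57 and -0.96 in every WT library and between 0.96 and 1.32 in every knockout library, on the log2 scale relative to the mean of the lines. Several of these genes overlap, such as Cers2 and Setdb1, and the strand setting of the counting is not given in the sources used here, so reads of overlapping neighbours cannot be told apart. Of the 6 tested genes before the run 4 were also higher, Pip5k1a (log2 1.94) and Lysmd1 (log2 1.74) among them, and 2 were not called. Of the 6 beyond its end 1 was higher (log2 0.59), 1 lower (log2 -3.81) and 4 were not called, among them Ensa (log2 -0.54) and Mcl1 (log2 0.32).

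Other runs went down. On chromosome 14, from 99034544 to 100285891, 6 genes in a row were lower with a median of -2.63: Mzt1, Bora, Dis3, Pibf1, Klf5 and Klf12, which include a mitotic kinase activator, Bora, and an exosome ribonuclease, Dis3. On chromosome 8, from 71568728 to 71918851, 11 genes from Slc27a1 to Zfp882 were lower with a median of -1.48, Jak3 among them. On chromosome 3, from 156060889 to 159938666, 7 genes including Wls, which carries Wnt ligands to the cell surface, and Cth, the last enzyme of cysteine synthesis, had a median of -1.10. On the X chromosome, from 50841174 to 52613974, 6 genes from Stk26 to Gpc3 were higher with a median of 2.12. In all, 98 of 13780 windows of 11 neighbouring tested genes had a median above 1 and 125 a median below -1.

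**Figure D3:**
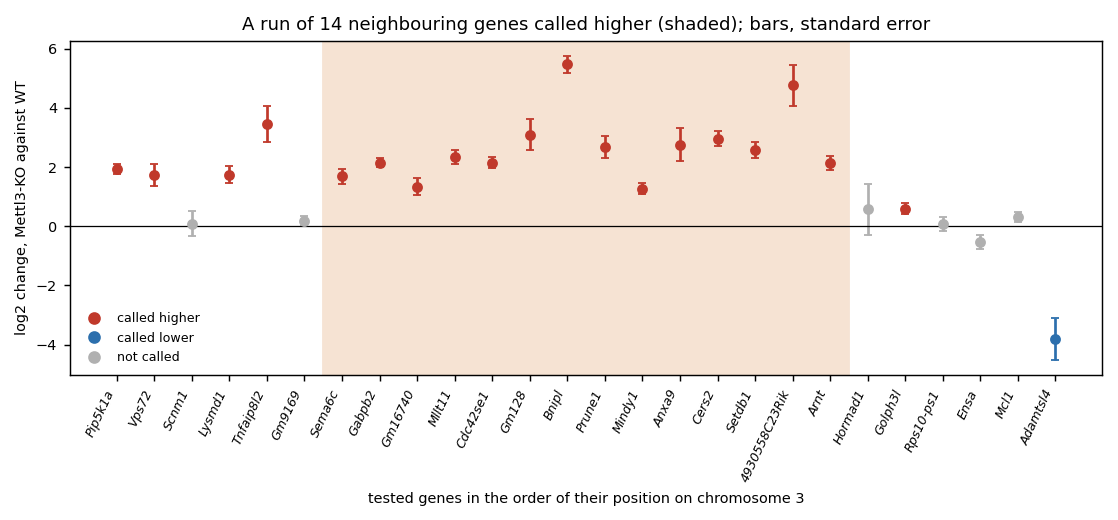
Log2 change of 26 neighbouring tested genes on chromosome 3 in their order along the chromosome; points are genes, bars are standard errors, and the shaded stretch is the run of 14 genes. Within the run all changes lie between 1.27 and 5.47, and changes beyond its right end lie between -3.81 and 0.59.

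The nuclear lamin gene Lmna and part of the S100, annexin, desmosome and keratin genes were lower in the knockout. Lmna, the A-type nuclear lamin, was at 158, 235, 208, 140 and 209 CPM in WT and at 3.71, 7.51 and 8.14 CPM in the knockout (log2 -4.82, SE 0.22, edgeR adjusted p = 5.10e-11). S100a6, a calcium-binding protein, was at 689, 1004, 762, 356 and 491 CPM in WT and at 29.3, 33.2 and 40.9 in the knockout (log2 -4.22). The groups were far apart for both. Ahnak, a very large scaffold that binds S100 proteins and annexins, fell by 4.24. Of 18 S100 proteins and annexins 7 were lower and 2 higher, with a median of -0.63, and Anxa3 (log2 -3.44) and Anxa5 (log2 -1.97) were among the lower. Of 16 desmosome and keratin genes 8 were lower and 1 higher (median -0.81), led by Dsg2, the desmosomal cadherin of simple epithelia (log2 -2.61), Krt42 (log2 -2.86) and Krt17 (log2 -3.07).

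Actin and contractile genes were divided. Of 36 tested, 14 were lower and 6 higher, with a median of -0.37, and with all 14 libraries 9 were lower. Flnc, a filamin that cross-links actin, was at 21.1, 20.9, 14.7, 14.9 and 24 CPM in WT and at 1.65, 2.96 and 3.33 CPM in the knockout (log2 -2.83). Tagln2, an actin-binding protein, fell by 2.33. Myl9, a myosin regulatory light chain, was on the other side, at 4.85, 2.74, 3.27, 2.83 and 1.27 CPM in WT and at 21.4, 42.6 and 70 CPM in the knockout (log2 3.90, SE 0.36, edgeR adjusted p = 9.60e-07). Tpm2 and Cnn2, 2 further actin-binding genes, rose by 1.13 and 1.08, with ranges that overlapped.

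Tubulins and the proteins that bind them were higher more often than lower, 13 against 4 of 28, with a median of 0.63, and without the WT 1 h library 2 were lower. Stmn2, a neuronal protein that sequesters tubulin, was at 13.8, 20.7, 12.1, 21.1 and 14.8 CPM in WT and at 325, 496 and 578 CPM in the knockout (log2 4.88, SE 0.23, edgeR adjusted p = 9.51e-11). Tuba1a, the tubulin of growing neurons, rose by 2.11. Stmn1 (log2 -1.32) and Mapt, the axonal protein tau (log2 -2.01), fell. Tau was at 186, 239, 177, 202 and 239 CPM in WT and at 38.2, 56.3 and 66.3 in the knockout, so the microtubule genes of neurons did not move in 1 direction. Among 12 other intermediate filament genes, 6 rose and 3 fell. The neurofilaments Nefh (log2 2.73) and Nefm (log2 2.02) and peripherin, Prph (log2 2.12), rose, and Lmna and Des, desmin (log2 -2.36), were among those that fell. The neural marker sums above moved with these genes, and their part in the result was not tested.

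**Figure D4:**
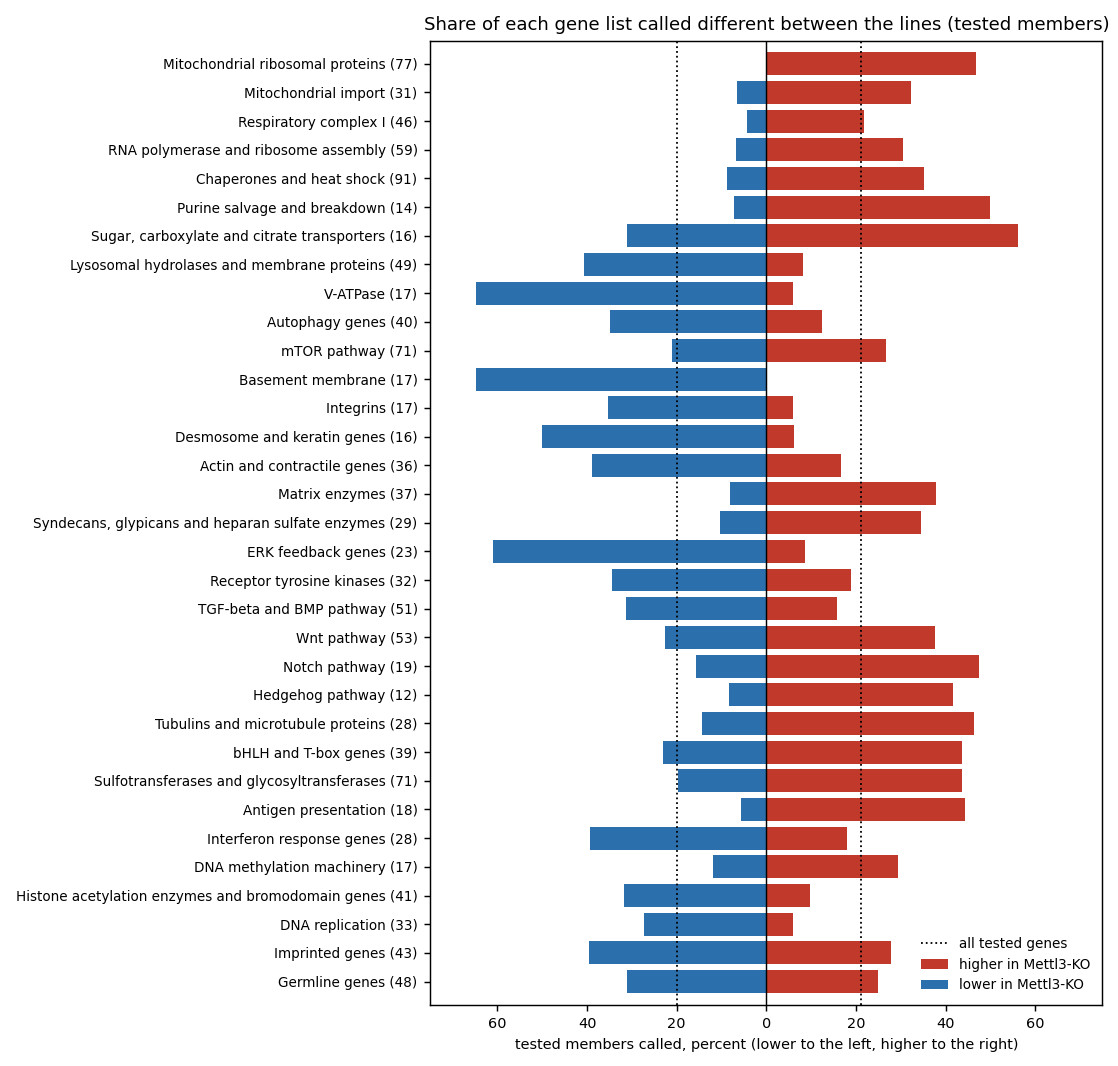
Share of tested members called higher (bars to the right, percent) and lower (bars to the left, percent) in the knockout for 33 gene lists; dotted lines are the shares over all tested genes, 21.1% and 19.9%. Mitochondrial ribosomal proteins reach 46.8% higher with none lower, and V-ATPase subunits reach 64.7% lower.

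The extracellular contacts of these cells differed by component. Laminins and collagen IV build the basement membrane, the sheet that integrins grip. Of 17 basement membrane genes 11 were lower and none higher, with a median of -1.09. Of the 11 lower genes 7 lie outside chromosomes 1 and 8, as do 11 of the 17 tested. Lama1, the laminin chain of the early embryo, was at 84.2, 119, 83.1, 75.9 and 108 CPM in WT and at 8.3, 13.4 and 17.1 CPM in the knockout (log2 -2.94, SE 0.18, edgeR adjusted p = 1.91e-09). Lama5, another laminin chain, also fell (log2 -1.93). Lama1 is itself a marker of primitive endoderm, and the summed endoderm markers above moved with this group. Their part in the result was not tested.

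Integrins, the receptors for this matrix, followed in part, with 6 of 17 lower and 1 higher (median -0.54). Itgb4, the laminin-binding subunit of hemidesmosomes, was at 14.9, 18.1, 12, 15.2 and 13.7 CPM in WT and at 1.83, 2.58 and 3.51 CPM in the knockout (log2 -2.40, SE 0.26, edgeR adjusted p = 1.58e-06). Its partner Itga6 was at 382, 401, 469, 516 and 483 CPM in WT and at 190, 232 and 276 in the knockout (log2 -1.0). Itga3, another laminin receptor, fell by 1.70. Itgb5, a vitronectin receptor subunit, rose by 1.04.

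Other matrix genes differed by group. Of 17 fibrillar and other collagens 3 were higher (17.6%) and 4 lower (23.5%), against 21.1% and 19.9% of all tested genes. Of 37 matrix enzymes and their regulators 14 were higher (37.8%) and 3 lower (8.11%), with a median of 0.33. With all 14 libraries 9 of them were higher. Adamts1, a protease that cleaves proteoglycans, was at 0.613, 0.457, 0.373, 0 and 0 CPM in WT and at 8.36, 11.7 and 21.3 CPM in the knockout (log2 5.32). Mmp25, a membrane-bound metalloprotease, rose by 3.21 and P3h4, a partner of hydroxylases that modify collagen, by 1.45. Plaur, the urokinase receptor, went from 86.9, 87.5, 71.9, 56.3 and 58.8 CPM in WT to 8.49, 12.2 and 20.9 in the knockout (log2 -2.45), and Loxl2, a collagen cross-linker, fell by 2.70. Of 29 syndecans, glypicans and heparan sulfate enzymes 10 were higher (34.5%) and 3 lower (10.3%), with a median of 0.46. That count of higher genes fell to 6 without the Mettl3-KO 8 h replicate 2 library and to 4 with all 14 libraries.

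Heparan sulfate chains hold growth factors at the cell surface, and their carriers and modifying enzymes changed in both directions. Gpc3, a glypican, was at 4.29, 2.74, 3.36, 5.86 and 3.65 CPM in WT and at 32.9, 39.3 and 50.5 CPM in the knockout (log2 3.35, SE 0.21, edgeR adjusted p = 2.79e-09). Hs6st2, which adds 6-O sulfate, rose by 2.84 and the syndecan Sdc1 by 1.82. Gpc3 and Hs6st2 both lie in the run on the X chromosome. Hs2st1, which adds 2-O sulfate, fell by 1.80, and the sulfatases Sulf1 (log2 -0.81) and Sulf2 (log2 -0.72), which remove 6-O sulfate, fell too.

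Cell-to-cell junction genes were mixed. Of 23 tight junction genes 9 were higher and 3 lower (median 0.47). Cgnl1, a cingulin-like junction protein, went from 5.9, 2.29, 5.6, 6.99 and 8.42 CPM in WT to 24.9, 31.9 and 53.1 in the knockout (log2 2.68), while Jam2, a junctional adhesion molecule, fell by 1.61. Of 17 classical cadherins and catenins 6 rose and 6 fell. Cdh2, N-cadherin, rose by 1.33, and Ctnna1, alpha-catenin, which ties cadherins to actin, fell by 1.51. Celsr1, a planar polarity cadherin, fell by 3.28.

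**Figure D5:**
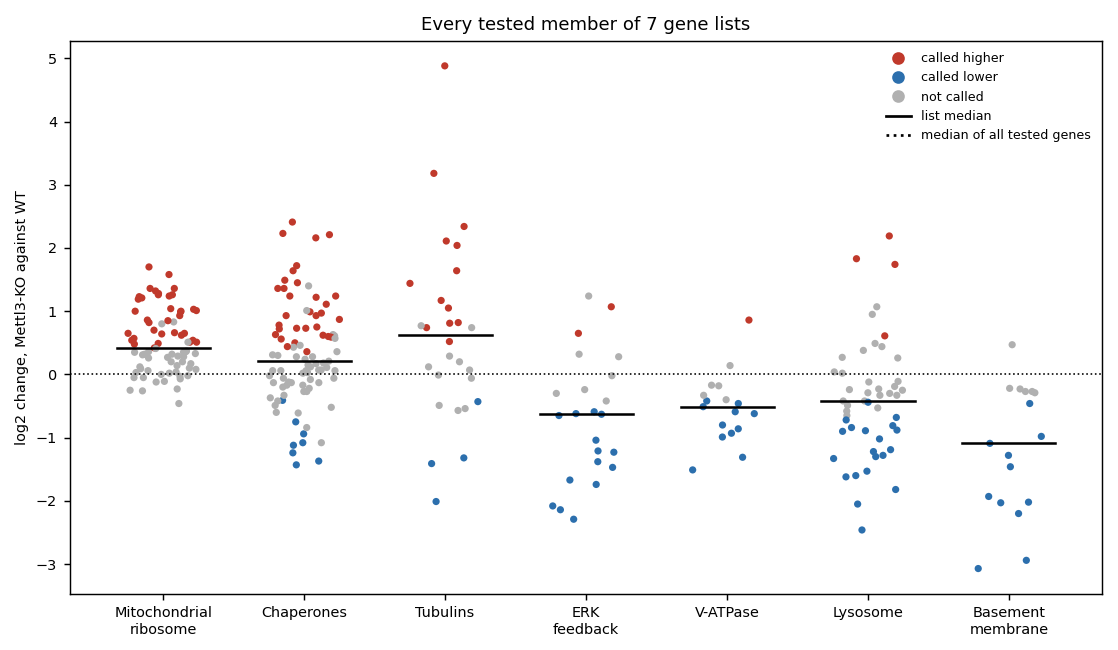
Log2 change of every tested member of 7 gene lists; points are genes, black lines are list medians, and the dotted line is the median of all tested genes, 0.01. Mitochondrial ribosomal proteins and tubulins centre above the line, and basement membrane, ERK feedback, V-ATPase and lysosomal genes centre below it.

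Receptor tyrosine kinases changed in both directions. Of 32 tested, 6 were higher (18.8%) and 11 lower (34.4%), with a median of -0.03. The shares over all tested genes were 21.1% and 19.9%. The count of lower receptors was 5 without the WT 1 h library, 6 without the WT 0 h library, 7 without the WT 3 h library and 7 without the WT 8 h replicate 1 library. FGF receptors were called in both directions. Fgfr3 was at 18.5, 10.7, 23.3, 26.9 and 16.2 CPM in WT and at 0.0611, 0.489 and 0.919 CPM in the knockout (log2 -5.24, SE 0.36, edgeR adjusted p = 7.09e-09), and Fgfr4 fell by 3.03. Fgfr2 was at 2.62, 0.762, 1.03, 0.424 and 0.159 CPM in WT and at 2.69, 8.38 and 10.6 CPM in the knockout (log2 3.0, SE 0.45, edgeR adjusted p = 5.66e-05), with the ranges just apart. Tyro3, a receptor of the TAM family, rose by 1.13. Among FGF ligands and their binding proteins 5 were higher and 3 lower of 11, and without the WT 1 h library 1 was lower. The count of higher genes was 3 with at least 10 counts in all 12 libraries and 2 with all 14 libraries. Fgf15 (log2 3.33) and Fgf18 (log2 2.06) rose, and Fgfbp1, which releases FGFs from the matrix, fell by 1.74.

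Downstream of these receptors, genes that ERK signalling induces and that feed back on it were lower in 14 of 23 cases and higher in 2, with a median of -0.63. Spry2, an inhibitor of receptor signalling, was at 1217, 1569, 1063, 1251 and 1517 CPM in WT and at 217, 260 and 334 CPM in the knockout (log2 -2.29, SE 0.16, edgeR adjusted p = 6.73e-09). Dusp1, an ERK pathway phosphatase, fell by 2.08, while Dusp4, a phosphatase of the same family, rose by 1.07. In the cytokine pathway, 6 of 25 genes were lower (24%) and 4 higher (16%), against 19.9% and 21.1% of all tested genes. Tyk2 (log2 -1.54), Jak3 (log2 -1.97) and Stat3, which carries the LIF signal (log2 -0.87), fell. Stat3 was at 227, 265, 263, 247 and 265 CPM in WT and at 104, 134 and 182 in the knockout.

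The Notch pathway passes signals between touching cells. Of its 19 tested genes 9 were higher and 3 lower, with a median of 0.45. The ligand Jag2 went from 8.91, 4.88, 9.05, 9.82 and 5.72 CPM in WT to 14.8, 19.8 and 26.4 in the knockout (log2 1.47). The receptor Notch2 rose by 1.38 and the regulator Dtx1, known as a Notch target in lymphocytes, by 2.06. The receptors Notch1 (log2 -0.77) and Notch4 (log2 -1.72) fell, and Notch4 was at -0.85 and not called without the 8 h libraries. Hes1, the classical target, went down, from 157, 127, 133, 230 and 72.4 CPM in WT to 26, 35.3 and 53.8 in the knockout (log2 -2.0, SE 0.24, edgeR adjusted p = 1.20e-05). For Hes1, Jag2, Notch2 and Dtx1 the lines did not overlap.

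Of 12 tested Hedgehog pathway genes 5 were higher and 1 lower, with a median of -0.05, and 3 were higher when at least 10 counts in all 12 libraries were asked for. Gli1, a transcription factor and target of the pathway, was at 33.4, 33.2, 34.7, 26.1 and 36.5 CPM in WT and at 81.9, 144 and 197 CPM in the knockout (log2 2.06, SE 0.19, edgeR adjusted p = 3.05e-07). Ptch1, the receptor and also a target, was at 49.3, 48.3, 58.5, 60.7 and 49.6 CPM in WT and at 105, 231 and 292 CPM in the knockout (log2 1.92, SE 0.21, edgeR adjusted p = 1.75e-06). Neither gene overlapped between the lines. Hhip, a decoy receptor and a further target, rose by 4.15. The lower one was the co-receptor Boc (log2 -1.16), which was not called without the WT 0 h library (log2 -0.95).

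Wnt and TGF-beta genes are given in brief. Of 53 Wnt genes 20 were higher and 12 lower (median 0.30), and with all 14 libraries 9 were higher. Receptors were higher in 6 of 13 cases and lower in 1, and ligands higher in 3 of 12 and lower in 4. Lef1, the transcription factor that acts with beta-catenin, rose by 4.33, and Sp5, a Wnt target, by 1.56. Of 51 TGF-beta and BMP genes 8 were higher and 16 lower (median -0.26). Bmp4 was at 1729, 2603, 2779, 2760 and 1896 CPM in WT and at 80.6, 154 and 279 CPM in the knockout (log2 -3.91), and Id1, a target of BMP signalling, fell by 3.43. Of 71 mTOR pathway genes 19 were higher (26.8%) and 15 lower (21.1%), against 21.1% and 19.9% of all tested genes. With all 14 libraries the counts were 10 and 6. Grb10, which restrains insulin receptor signalling and is imprinted, rose from 3.96, 1.68, 2.33, 2.4 and 1.27 CPM in WT to 29.9, 39.2 and 54.6 (log2 4.11). Rragd, a GTPase that brings mTORC1 to the lysosome, rose by 2.58, and Deptor, an mTOR-binding inhibitor, fell by 1.73.

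Guidance molecules steer axons and migrating cells, and both ligands and receptors were among the called genes. Of 28 semaphorins, plexins and neuropilins 9 were higher (32.1%) and 8 lower (28.6%), against 21.1% and 19.9% of all tested genes. Without the WT 1 h library 5 of them were lower. Sema6a was at 1.28, 2.59, 7.19, 3.18 and 3.18 CPM in WT and at 67.2, 105 and 186 CPM in the knockout (log2 5.29, SE 0.34, edgeR adjusted p = 1.76e-08). Sema3e rose by 2.98, and the receptor Plxnb2 fell by 1.41. Of 17 ephrins and Eph receptors 7 were higher (41.2%) and 6 lower (35.3%). The ligands Efna4 (log2 1.12) and Efnb3 (log2 1.5, and 0.45 with all 14 libraries) rose, and the receptors Epha2 (log2 -1.51) and Ephb3 (log2 -1.45) and the ligand Efnb1 (log2 -1.23) fell. Epha2 was at 119, 103, 82, 76 and 72.1 CPM in WT and at 18.9, 29.8 and 48.2 in the knockout.

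Transcription factors of the basic helix-loop-helix and T-box families were 17 higher and 9 lower of 39, with a median of 0.75. With all 14 libraries 5 were lower. Members such as Olig2 passed the count filter through the knockout libraries, and with at least 10 counts in all 12 libraries 7 were higher. Members that this stricter filter left untested counted as not called, here and in every other list. The same stricter filter left 5 homeobox genes, 11 Wnt genes, 8 matrix enzymes, 5 semaphorins and their receptors and 1 receptor tyrosine kinase higher. The lowest median of the helix-loop-helix and T-box genes over the alternatives was -0.06. Olig2, a factor of the ventral neural tube and of oligodendrocytes, was between 0.0706 and 0.61 CPM in WT and at 19.7, 48.5 and 79.1 CPM in the knockout (log2 7.61, SE 0.44, edgeR adjusted p = 1.79e-09). Olig1, its neighbour on chromosome 16, was at 0.557, 1.98, 2.33, 0.636 and 0.953 CPM in WT and at 38.4, 46.2 and 69.3 CPM in the knockout (log2 5.43). Neurod1, a factor of neuron differentiation, rose by 3.55. Epas1, the hypoxia-inducible factor HIF-2 alpha, fell by 3.01.

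Homeobox genes outside the Hox clusters were called at about the background share, 17 higher and 14 lower of 67. Outside chromosomes 1 and 8, 9 of 58 were lower. Their individual changes were large. Nkx6-3, a factor of the stomach antrum, was at 288, 379, 353, 314 and 236 CPM in WT and at 0.593, 1.14 and 2.83 CPM in the knockout (log2 -7.93, SE 0.33, edgeR adjusted p = 3.15e-10). Pou4f1, a sensory neuron factor, went from 52.9, 53.9, 80, 56 and 86.6 CPM in WT to 10.4, 12.6 and 15.3 (log2 -2.36). Six4, a factor of sensory placodes and muscle, rose by 2.50 and Pou3f1, known from primed cells and the neural plate, by 1.69. Sox1, the early neural plate factor, was at 43, 46.6, 52.9, 48.7 and 71.7 CPM in WT and at 4.68, 6.09 and 13.9 in the knockout (log2 -2.73). Genes known from neural cells thus lay on both sides, with Olig2, Neurod1 and Stmn2 higher and Sox1, Pou4f1 and Mapt lower.

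Enzymes that build cell-surface sugars were often called. Of 71 sulfotransferases and glycosyltransferases 31 were higher and 14 lower, with a median of 0.71. With all 14 libraries 8 were lower, and with a stricter filter on low counts 14 were higher. Fut9, the fucosyltransferase that makes the stem cell antigen SSEA-1, was at 9.36, 14.3, 14.8, 12.3 and 9.37 CPM in WT and at 66.2, 105 and 170 CPM in the knockout (log2 2.93, SE 0.24, edgeR adjusted p = 5.70e-08). Chst10, which makes the HNK-1 epitope of neural cells, rose by 1.68. St8sia3, a sialyltransferase, rose by 4.97 from low levels. B4galt6, a lactosylceramide synthase, fell by 2.55.

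Transport genes changed singly, and the whole solute carrier family (56 higher, 47 lower of 207, median 0.06) was close to the background. Of 16 sugar, carboxylate and citrate transporters 9 were higher and 5 lower (median 1.11). That count of lower genes was 3 without the WT 0 h, the WT 3 h or the Mettl3-KO 3 h replicate 1 library. Slc16a1, a lactate and pyruvate carrier, was at 45.5, 27.4, 44.1, 40.4 and 28.4 CPM in WT and at 72.5, 107 and 126 CPM in the knockout (log2 1.47), and the lactate exporter Slc16a3 rose by 2.17. Slc2a3, the high-affinity glucose transporter, fell by 0.75 with ranges that overlapped. Of 35 metal transporters and metallothioneins 8 rose (22.9%) and 6 fell (17.1%), near the 21.1% and 19.9% of all tested genes. Of those that rose, 4 lie outside chromosomes 1 and 8, as do 26 of the 35. Steap2, a metalloreductase, went from 124, 144, 116, 139 and 136 CPM in WT to 12.9, 16 and 21.6 (log2 -3.0), and the metallothionein Mt2 rose by 1.82. Of 41 potassium channel genes 11 were higher and 5 lower (median 0.70), among them Kcnk5, an acid-sensitive leak channel (log2 2.16). Of these channels 2 were higher with at least 10 counts in all 12 libraries and 7 after thinning to the smallest total, and the lowest median over the alternatives was 0.08. Abca1, which exports cholesterol, averaged 37.1 ± 11.5 CPM (SD, n = 5) in WT and 4.86 ± 1.72 CPM (SD, n = 7) in the knockout (log2 -3.0), with the lines apart.

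In nucleotide and one-carbon metabolism, purine salvage and breakdown genes were higher in 7 of 14 cases and lower in 1, with a median of 0.54. With at least 10 counts in all 12 libraries 4 were higher. The one that fell was Pnp, purine nucleoside phosphorylase, from 251, 149, 164, 201 and 214 CPM in WT to 85.4, 92.8 and 115 (log2 -1.0), while its near copy Pnp2 rose by 7.36. Because these 2 genes are close copies, how the counting divided their reads is uncertain. Among 25 purine and pyrimidine synthesis genes 4 were higher (16%) and 6 lower (24%), against 21.1% and 19.9% of all tested genes. Tk1, cytosolic thymidine kinase, rose by 1.49, and Dtymk, the next kinase on the way to thymidine triphosphate, fell by 1.38. Gldc, the glycine decarboxylase of mitochondria, went from 7.3, 10.2, 8.31, 7.56 and 15.2 CPM in WT to 37.2, 50.1 and 60.9 (log2 2.37). Retinoid and steroid genes rose in 5 and fell in 5 of 23 cases (21.7% each), near the 21.1% and 19.9% of all tested genes. The count that rose was 3 without the WT 3 h, the WT 8 h replicate 1 or the Mettl3-KO 3 h replicate 1 library. It was also 3 with at least 10 counts in all 12 libraries. Outside chromosomes 1 and 8, 3 of 19 rose. Cyp26a1, which degrades retinoic acid, rose by 3.19, and Dhrs3, which reduces retinal to retinol, fell by 3.28.

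Cpt1a, which commits fatty acids to mitochondrial oxidation, was at 89.2, 88.2, 102, 117 and 130 CPM in WT and at 14.8, 33 and 39 CPM in the knockout (log2 -2.01, SE 0.25, edgeR adjusted p = 8.89e-06). Of 27 fatty acid oxidation genes 6 were higher (22.2%) and 7 lower (25.9%), against 21.1% and 19.9% of all tested genes. Bnip3, which marks mitochondria for removal and is known as a target of hypoxia-inducible factors, was at 1.11, 1.52, 2.71, 0.212 and 0.477 CPM in WT and at 13, 24 and 49.9 CPM in the knockout (log2 4.51). Mitophagy and hypoxia genes together were higher in 10 and lower in 6 of 26 cases. The count of lower genes was 2 or 3 when any one of 6 libraries was left out (WT 0 h, WT 3 h, and in the knockout 0 h replicate 2, 1 h replicate 1, 3 h replicate 1 and 8 h replicate 1).

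Immune genes showed a split between antigen presentation and interferon response. Class I antigen presentation is known to be weak in embryonic stem cells. Of 18 tested genes 8 were higher and 1 lower, with a median of 0.66. The count of higher genes was 5 with all 14 libraries and 5 with at least 10 counts in all 12 libraries. H2-K1 was at 7.02, 11.1, 8.59, 10 and 1.91 CPM in WT and at 21.7, 24.7 and 34.3 CPM in the knockout (log2 1.72, SE 0.30, edgeR adjusted p = 0.000246). H2-D1 was at 7.18, 15.5, 8.96, 8.33 and 8.42 CPM in WT and at 18.9, 26.3 and 29.2 CPM in the knockout (log2 1.36, SE 0.22, edgeR adjusted p = 0.000132). Class I genes are close copies of each other, so the share of each is uncertain. Tapbp, tapasin, which loads peptide onto class I molecules, fell by 1.73.

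Of 28 interferon response genes 11 were lower and 5 higher, with a median of -0.58. Without the Mettl3-KO 0 h replicate 1 library 8 were higher, and with all 14 libraries 7 were lower and 2 higher. Xaf1, an interferon-induced antagonist of XIAP, was at 33.4, 34.9, 43.4, 40.7 and 47 CPM in WT and at 0.237, 1.42 and 1.61 CPM in the knockout (log2 -5.29, SE 0.34, edgeR adjusted p = 4.80e-09). Rsad2, viperin, fell by 4.5. Ifitm1, a restriction factor that is also known from early germ cells, went up, from 38.9, 39, 29.2, 23.4 and 13.7 CPM in WT to 120, 154 and 216 in the knockout (log2 2.46), and Bst2, tetherin, rose by 1.59. Among 21 NF-kappa-B and inflammatory genes 6 were lower and 2 higher, with Icam1, an adhesion molecule for leukocytes, at -2.05.

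Chromatin genes gave no large group change. Of 75 histone methyltransferases and demethylases 15 were higher and 15 lower, of 36 Polycomb genes 7 and 8, and of 42 remodellers 7 and 7. Without the WT 3 h or the Mettl3-KO 3 h replicate 1 library 9 histone methylation genes were lower. Histone acetylation enzymes and bromodomain genes were lower in 13 and higher in 4 of 41 cases (median -0.26). That count depended on single libraries, being 7 without the Mettl3-KO 3 h replicate 1 library, 8 without any one of 5 others (WT 3 h, WT 8 h replicate 1, Mettl3-KO 1 h replicate 1 and both Mettl3-KO 8 h libraries) and 2 with all 14. Hdac1, a class I histone deacetylase, was at 191, 163, 131, 176 and 94.7 CPM in WT and at 42.9, 51.4 and 65.1 CPM in the knockout (log2 -1.54, SE 0.18, edgeR adjusted p = 4.53e-06). Atrx, which deposits histone H3.3 at repeats, fell by 1.59, and its partner Daxx rose by 1.12. Dnmt3a, a de novo DNA methyltransferase, rose by 2.17, and Tet2, which oxidises methylcytosine, fell by 1.15.

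Germline genes were divided, with 12 higher and 15 lower of 48 (median -0.29). Hormad2, a protein of the meiotic chromosome axis, went from 8.08, 7.01, 9.99, 8.4 and 16.4 CPM in WT to 0.0924, 0.445 and 0.773 in the knockout (log2 -4.40), and Mov10l1, a helicase that makes piRNAs, fell by 2.91. Rpl39l, a ribosomal protein copy used in spermatogenesis, rose by 2.86. Germ cell markers summed to 63.8 to 97.2 CPM in WT and 35.4 to 49.6 in the knockout, with 3 of 7 lower and none at 0, and their part in the result was not tested. Of 43 imprinted genes 12 were higher and 17 lower, and with all 14 libraries 6 and 11. Plagl1, an imprinted zinc finger factor, was at 38.3, 44.3, 37.9, 21.8 and 33.8 CPM in WT and at 1.16, 2.13 and 3.93 CPM in the knockout (log2 -3.83), and Ndn, necdin, rose by 1.86.

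Mitochondrial biosynthesis genes moved up in small steps. Of 77 mitochondrial ribosomal proteins 36 were higher and none lower, with a median of 0.42, and with all 14 libraries 22 were higher. Mrpl46 was at 68.3, 50.1, 50.1, 60.7 and 59.9 CPM in WT and at 145, 184 and 250 CPM in the knockout (log2 1.70, SE 0.17, edgeR adjusted p = 8.33e-07). Of 31 import genes 10 were higher and 2 lower. Of 46 complex I genes 10 were higher (21.7%, near the 21.1% of all tested genes) and 2 lower, among them the assembly factor Ndufaf4 (76.5, 73.9, 80.1, 75.9 and 70.5 CPM in WT, 178, 230 and 260 in the knockout, log2 1.59). The count of higher complex I genes was 5 without the WT 1 h, the WT 3 h or the Mettl3-KO 3 h replicate 1 library and 16 without the WT 0 h library. Outside mitochondria, 18 of 59 RNA polymerase and ribosome assembly genes were higher and 4 lower, with Bysl, an assembly factor of the small subunit, at 1.47. Of 91 chaperones 32 were higher and 8 lower (median 0.21). With all 14 libraries 18 were higher, and without the WT 0 h library 5 were lower. Bag3, which sends misfolded proteins to autophagy, rose by 2.21.

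Lysosomal and autophagy genes went the other way. Of 17 V-ATPase genes, which encode the proton pump of lysosomes, 11 were lower and 1 higher (median -0.51). Outside chromosomes 1 and 8 the count of lower genes was 8 of 14 tested. It was 7 without the Mettl3-KO 3 h replicate 1 or the Mettl3-KO 8 h replicate 1 library, and 3 with all 14 libraries. Of 49 lysosomal hydrolases and membrane proteins 20 were lower and 4 higher (median -0.42). Of the lower ones 15 lie outside chromosomes 1 and 8, as do 43 of the 49. Atp6v0d1, a subunit of the pump's membrane part, was at 111, 280, 208, 135 and 183 CPM in WT and at 43.7, 57.8 and 80.5 CPM in the knockout (log2 -1.51). Of 40 autophagy genes 14 were lower and 5 higher (median -0.34), and with all 14 libraries 5 were lower. Map1lc3b, the LC3 protein of autophagosome membranes, went from 211, 238, 214, 197 and 249 CPM in WT to 45.1, 63.3 and 103 (log2 -1.77).

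Many lysosomal and autophagy promoters are known to carry a motif with the E-box CACGTG at its core, to which TFEB and related factors bind. The windows below show only the core CACGTG in capitals, in promoters of genes of these 3 lists that were lower in the knockout. Not every lower member that holds CACGTG is shown. Among the windows shown, only that of Atp6v1a holds the longer TCACGTGA. Each window is 26 bases of RefSeq promoter sequence, build GRCm38.p6, read 5′ to 3′ on the strand of the gene, and CACGTG reads the same on both strands.
Atp6v1a (chr16:44139375-44139400, minus strand, log2 change -0.80): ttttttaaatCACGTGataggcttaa
Ctsf (chr19:4855076-4855101, plus strand, log2 change -1.22): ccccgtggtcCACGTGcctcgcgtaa
Atg7 (chr6:114670954-114670979, plus strand, log2 change -0.94): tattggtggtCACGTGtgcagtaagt
Atg14 (chr14:47568420-47568445, minus strand, log2 change -0.99): aacaaaatccCACGTGactggccctg
Rubcn (chr16:32868439-32868464, minus strand, log2 change -1.01): cctagcacatCACGTGtacccaggtt

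Of the 14919 tested genes 10509 had a promoter window of 250 bases before to 50 after the start, and 11.9% of these held CACGTG. The share was 11.7% among genes called higher, 12.4% among genes called lower and 11.7% among the rest. It was 13 of 38 lysosomal genes (34.2%) and 4 of 12 V-ATPase genes (33.3%). Among the members called lower it was 4 of 13 lysosomal genes (30.8%) and 3 of 9 V-ATPase genes. Among those called higher it was 1 of 1 V-ATPase, 0 of 2 lysosomal and 0 of 5 autophagy genes. For autophagy genes it was 5 of 33 (15.2%), and 3 of the 12 called lower, each time of the members with a promoter window. Other lists also lay above 11.9%, with 14 of 42 germline genes (33.3%), 6 of the 13 germline genes called lower (46.2%) and 13 of 52 RNA polymerase and ribosome assembly genes (25%). The longer TCACGTGA was in 2.13% of all windows, 1.26% of those called higher and 2.8% of those called lower. It was in 3 of 12 V-ATPase, 5 of 38 lysosomal, 1 of 33 autophagy, 0 of 42 germline and 1 of 52 ribosome assembly windows. Among members called lower it was in 2 of 9 V-ATPase, 1 of 13 lysosomal and 0 of 12 autophagy windows. Among members called higher it was in 1 of 1 V-ATPase, 0 of 2 lysosomal and 0 of 5 autophagy windows. Of the genes shown, Atg7 (log2 -0.48), Atg14 (-0.94), Atp6v1a (-0.61) and Rubcn (-0.80) were not called with all 14 libraries. Atg7 was also not called without the 8 h libraries (-0.57), nor was Rubcn with the 8 h libraries alone (-0.93). A match is a description of these letters and not a binding site. The lower members of the lysosomal list held CACGTG at about the share of the whole list.

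Cell cycle genes beyond the D cyclins differed less. Of 33 DNA replication genes 9 were lower and 2 higher (median -0.24). Only 4 of the lower ones lie outside chromosomes 1 and 8, against 24 of the 33. The strongest, Gins3, a part of the active replicative helicase (log2 -1.74), and Cdt1, which loads that helicase onto DNA (log2 -1.14), are both on chromosome 8. Kinetochore and spindle genes were higher in 7 and lower in 7 of 38 cases (18.4% each), near the 21.1% and 19.9% of all tested genes. Without the WT 3 h or the Mettl3-KO 3 h replicate 1 library 4 were higher. Of the lower ones 4 lie outside chromosomes 1 and 8, as do 34 of the 38. Of 35 apoptosis genes 6 were higher (17.1%) and 7 lower (20%), near the 21.1% and 19.9% of all tested genes. Hrk, a BH3-only protein that promotes apoptosis, went from 21.8, 40.1, 40.9, 41.6 and 60.7 CPM in WT to 1.88, 2.68 and 5.41 (log2 -3.78).

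Whether the difference between lines changed during the chase was tested with a genotype-by-hours term. In edgeR's test 76 genes (0.509%) were called, 38 in each direction, 2424 had an unadjusted p below 0.05, and 32 of the 76 were also called between the lines. Cpt1a is one, its log2 difference falling by 0.23 per hour (edgeR adjusted p = 0.0183). Mthfd2, a mitochondrial folate enzyme, had a difference that rose by 0.28 per hour (edgeR adjusted p = 0.0183). The count was 0 without the WT 1 h, the WT 8 h replicate 2, the Mettl3-KO 8 h replicate 1 or the Mettl3-KO 8 h replicate 2 library, with 1607 to 2100 genes at an unadjusted p below 0.05 in these 4 edgeR fits, and 288 without the WT 0 h library. DESeq2 called 560. With 1 deep WT library at 0, 1 and 3 h, these slopes rest on few WT points.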

How the data were processed

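SLAM-seq total RNA was measured in 14 libraries of paused mouse embryonic stem cells. The authors deposited total counts, unnormalized read counts per gene for each library, per the file headers, next to 14 columns of conversion counts that were not used here. Trim Galore 0.4.0, Subread 1.5.0 with featureCounts, edgeR 3.32.1 and mm10 appear in the submitters' processing notes. No aligner or strand setting is given in the sources used here. An unnamed entry, 0.00707 to 0.0312% of counts, was left out.

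The 12 libraries with at least 1000000 counts (6108570 to 26656352) were fitted in R 4.3.3 with edgeR 4.0.16: TMM scaling, at least 10 counts in at least 5 libraries, genotype with chase time as a factor, glmQLFTest, and Benjamini-Hochberg adjustment at 0.05 over 14919 genes. On data simulated for this comparison (14599 genes) it recovered 52% of genes changed by 1 and 89.8% of those changed by 2 on the log2 scale, with 5 false of 144 calls. Far fewer genes were changed in that simulation than were called here, so these rates may not hold for the real libraries. Alternatives were DESeq2 1.42.0, other scalings, filters, library sets and chase hours, a replicate block, thinned counts and leaving out each library. List members that an alternative did not test were counted as not called, so a fall in a list count can reflect untested genes. Groups follow the submitters' labels. Genes named are Mettl3, the Y-linked genes, the 12 per direction with the smallest p among called genes whose ranges were apart and whose log2 change was 1 or more, up to 3 called members per list and direction, and markers. Neighbouring genes in runs, and genes beyond these, were chosen after their values were seen. The members and lists were chosen with earlier results of these data known, and list memberships were corrected after values were seen. Some genes are not reported here. Positions and promoters are RefSeq GRCm38.p6, with promoters for 10509 tested genes. Figures were drawn with matplotlib 3.10.9 in Python 3.11.15.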

Additional observations from a re-analysis of the deposited data

Results flagged for a closer look

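In 18 of 344 groups of libraries, a line's values for 1 of the 172 genes named here, 1 library lay far from the others of its line, a share close to the 1 in 20 that chance gives. In the stretch of chromosome 3, WT 8 h replicate 2 was the lowest WT library for Setdb1 at 21.8 CPM (others 47.7 to 51) and for Mindy1 at 52 CPM (others 85.9 to 89.1), and Mettl3-KO 8 h replicate 2 was the highest knockout library for Mindy1 at 249 CPM (others 156 to 196). The same WT library was the highest for Slc27a1 at 14.6 CPM. The WT 3 h library was the highest of its line for Pibf1 at 76.5 CPM (others 43.3 to 47.7) and Sulf2 at 318 CPM, and the lowest for Des at 3.08 CPM and Itgb5 at 15.3 CPM. The WT 1 h library was the highest for Ptges at 116 CPM and H2-D1 at 15.5 CPM, the WT 0 h library for Mthfd2 at 44.1 CPM, and WT 8 h replicate 1 for B4galt6 at 398 CPM. In the knockout, 1 h replicate 2 was the lowest library for Crmp1 at 33 CPM (others 87.3 to 101) and the highest for Cdt1 at 254 CPM and Kcnk5 at 75.4 CPM. Mettl3-KO 0 h replicate 1 was the highest for Atrx at 112 CPM and Pibf1 at 13.1 CPM, and 3 h replicate 1 for P3h4 at 91.3 CPM.

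The difference between the lines changed with hours of chase, by edgeR's interaction test, for 6 of the genes named here. It rose per hour on the log2 scale by 0.67 for Adamts1 (edgeR adjusted p = 0.0391), 0.65 for Lef1 (0.0268) and 0.28 for Mthfd2 (0.0183), and its slope was -0.23 for Cpt1a (0.0183), -0.37 for Notch4 (0.0327) and -0.31 for Xaf1 (0.04). Each lost its call under at least 1 alternative: Cpt1a and Mthfd2 kept it in 15 of 20, Notch4 in 12 of 20, Lef1 in 10 of 19, Xaf1 in 9 of 19 and Adamts1 in 8 of 19. The adjusted p over those alternatives ran from 1.53e-05 to 1 for Cpt1a, from 1.19e-05 to 0.856 for Mthfd2, from 0.000444 to 0.856 for Notch4, from 0.000185 to 0.976 for Lef1, from 0.00438 to 0.856 for Xaf1 and from 0.00551 to 0.856 for Adamts1.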

How the results depend on the processing

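No gene called in both fits changed direction under any alternative, and the median change of all genes stayed between -0.02 and 0.05. The counts of higher and lower genes were 1788 and 1455 with all 14 libraries, of which 1778 and 1455 were among the main calls, and 1799 were higher with the 8 h libraries alone. Leaving out 1 library gave 2559 to 3130 higher and 2297 to 2925 lower genes. After line means were removed, same-numbered libraries of the lines correlated at -0.00635 to 0.0795 and differently numbered ones at -0.094 to 0.0333. With 1 deep WT library at 0, 1 and 3 h, this cannot decide whether the replicate numbers pair the samples. With the replicate block the counts were 3121, 2851 and, for the genotype-by-hours term, 57. That term called 76 genes, against 0 with all 14 libraries (743 at an unadjusted p below 0.05), 560 with DESeq2, 630 with no count filter, and 0 to 288 with 1 library left out. The cause was not tested.

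Of 170 called genes named here, 28 lost the call under at least 1 alternative, 19 of them with all 14 libraries. With the 8 h libraries alone 9 lost it (Boc, Cdh2, Efnb3, H2-K1, Itga3, Prph, Rubcn, Sema6c and Tapbp) and without the 8 h libraries 5 (Atg7, Boc, Notch4, Slc27a1 and Zfp882). DESeq2, both other scalings, no count filter, the block and thinning ended none, nor did at least 10 counts in all libraries for the 143 genes it left to test. With the 8 h libraries alone 24 of the 170 were not tested. The log2 change of a named gene moved by over 1.5 times in 20 combinations of gene and alternative. These were Atg7 and Efnb3 with all 14 libraries (-0.48 and 0.45), and otherwise Atg7, Cpt1a, Ctsf, Hs6st2, Mthfd2, Notch4, Prph, Sema6c, Slc16a3, Slc27a1, Stat3 and Zfp882 with the 8 h libraries alone or left out. Counts of 5 or fewer members in other lists named here also moved by over 1.5 times with single libraries. The depth of 6108570 counts in the shallowest library limits genes of few counts, and the removal of chromosomes 1 and 8 was added after seeing the data.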
